A study of Rattus norvegicus with 32 samples.

Results

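Oncomodulin (gene symbol Ocm) was followed across 16 cultures of rat thymic epithelial cells (TEC) and hair follicle (HF) cells. The gene was chosen by its level in grafted TEC cultures, where it had stood among the largest increases over ungrafted TEC cultures. It is represented by 1 probe set annotated to Ocm alone (10756665), of 15316 probe sets with a single gene symbol that stand for 14511 genes. No probe set named Ocm together with another gene. Because TEC transplantation state chose the gene, its levels by that state, and every difference that involves a TEC state, are described with no test. Tests are given for hair follicle transplantation, donor stage and kind of culture.

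All donors were Sprague-Dawley rats of the CZ-004 line, labelled act-EGFP, in which enhanced green fluorescent protein is always on. TEC and HF cells were grown on irradiated 3T3-J2 mouse fibroblasts, and the grafted ones had passed through skin of nude mice before they were recovered and grown again. The 4 ungrafted TEC cultures were an E16 (embryonic day 16) clone, a P1 (postnatal day 1) clone, a 4-month clone and a 4-month bulk culture. The 4 TEC cultures after a first and the 4 after a second transplantation each comprised 2 E16 clones, 1 P1 clone and 1 4-month bulk culture. The HF cultures, all labelled P5, were 1 bulk culture and 1 clone before grafting and 1 of each after a first transplantation. Names differ between grafted and ungrafted cultures, and no ungrafted culture is labelled as recovered and regrown, so exposure to skin, selection of cells and further culture cannot be told apart.

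Oncomodulin is a small calcium-binding protein of the parvalbumin family, which bind calcium through EF-hand loops and act as buffers in the cytosol. It is best known from the outer hair cells of the cochlea, from rat tumours and transformed cells, where it was first described, and from placenta. It has also been reported as a factor released by macrophages and neutrophils that promotes the regrowth of nerve fibres. In the rat, transcription of Ocm has been described as starting in a solitary long terminal repeat related to intracisternal A particles, a family of endogenous retroviral elements.

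The promoter window of Ocm is shown because the results below concern the level of its transcript, whose annotated start it holds. The arrays do not show which start was used. It is taken from RefSeq (build GRCr8) and covers 250 bases before to 50 bases after the annotated start, on the plus strand of chromosome 12, chr12:15700376-15700675. The annotated gene runs from 15649452 to 15710375 and has 5 RefSeq transcripts, so this start lies 51.2 kb inside the gene's outer limit. Capitals mark the 3 motif matches that were found, which are in order AP-1, the CCAAT box and the polyadenylation signal.

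Ocm promoter: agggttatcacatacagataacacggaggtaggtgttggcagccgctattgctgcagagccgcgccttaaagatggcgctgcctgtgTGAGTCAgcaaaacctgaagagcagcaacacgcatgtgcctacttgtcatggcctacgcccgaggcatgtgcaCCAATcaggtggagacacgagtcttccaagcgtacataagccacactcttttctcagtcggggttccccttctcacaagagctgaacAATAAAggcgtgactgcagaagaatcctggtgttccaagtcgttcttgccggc

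The AP-1 motif (TGANTCA, both strands) matched once, at −163 to −157 relative to the start, and was present in 7.33% of the 33469 promoter windows of this length. The CCAAT motif (both strands) matched once, at −90 to −86, and was present in 37.5% of windows. The polyadenylation signal AATAAA, searched on the plus strand only, overlapped the start itself (−3 to 2) and was present in 12.4% of windows. The motifs of CRE (TGACGTCA, 1.83% of windows), the TATA box (TATAAA, 14.2%), the GC box (GGGCGG, 33.1%) and the E-box (CACGTG, 6.42%), each searched on both strands, had no match in the Ocm window. No searched motif overlapped another. None of the other 33468 windows shared a run of 16 bases with it in the same orientation, and 3 shared at least 1 such run in the opposite orientation. These matches describe letters in the window, and binding of a factor was not measured.

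Signals are log2 values made by the authors by robust multi-array averaging (RMA), and each culture was measured on 2 arrays. Array medians ran from 5.287 to 5.554, except for YR219P5_RC, the grafted bulk HF culture, whose array 1 had a median of 5.782. The basal keratin Krt14 was at 12.95 to 13.35 in every culture, near the top of the table's range, which ended at 14.03. Foxn1, the regulator of thymic epithelial maturation, was at 5.13 to 6.15 in all cultures, TEC and HF alike. Pax9, a factor of the pharyngeal endoderm, averaged 8.07 to 9.04 in the TEC groups and 6.32 to 6.36 in the HF groups. Background levels were not analysed here, so an ungrafted level is not shown to lie above background, and folds from it may be too small.

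In ungrafted TEC cultures, Ocm had a signal of 6.13 in the E16 clone PRE16cl11_VII, 6.78 in the P1 clone PRP1cl11_VII, 5.81 in the 4-month bulk culture PRP4mo_bulk and 5.19 in the 4-month clone PRP4mo_Cl09. These were the 4 lowest of the 16 culture means (5.98 ± 0.66, SD, n = 4). Both 4-month cultures were below the E16 and P1 clones.

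After a first transplantation, Ocm was at 10.37 in the E16 clone Clone_217, 8.05 in the E16 clone Clone_218, 9.83 in the P1 clone Clone_57 and 9.36 in the 4-month bulk culture Clone_907. The mean was 9.40 ± 0.99 (SD, n = 4), and every grafted culture was above every ungrafted TEC culture. The mean was 3.42 log2 units above the ungrafted mean (limma SE 0.51, 10.7-fold). Such a separation upward was seen for 600 of 15316 probe sets (3.92%), and nothing is read from it here because this contrast chose the gene. The 2 clones from E16 donors were the highest and the lowest of the group, 2.32 apart, so that the spread among grafted clones of 1 donor stage was as wide as that of the whole group.

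After a second transplantation, Ocm was at 10.52 in the E16 clone Clone_287, 11.13 in the E16 clone Clone_347, 11 in the P1 clone Clone_194 and 10.63 in the 4-month bulk culture Clone_354. The mean was 10.82 ± 0.29 (SD, n = 4), or 4.84 above the ungrafted mean (limma SE 0.51, 28.6-fold). All 4 cultures were above all cultures of the first transplantation and of the ungrafted state. The range within the group was 0.61, against 2.32 after a first transplantation and 1.58 before grafting.

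Between the second and first transplantation the mean differed by 1.42 (limma SE 0.51, 2.67-fold), and the closest cultures were Clone_287 at 10.52 and Clone_217 at 10.37. Twice-grafted cultures lay above once-grafted ones without overlap at 143 probe sets (0.934%), and twice-grafted above ungrafted at 985 (6.43%). The full order, with no overlap at either step, was found for 13 probe sets (0.0849%), Ocm included. Nothing is read from these counts for Ocm, because its level in grafted TEC cultures chose it. The second transplantation group was both the highest and the narrowest of the TEC groups for this gene. The names do not say whether a twice-grafted culture descends from one of the once-grafted cultures.

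**Figure D1:**
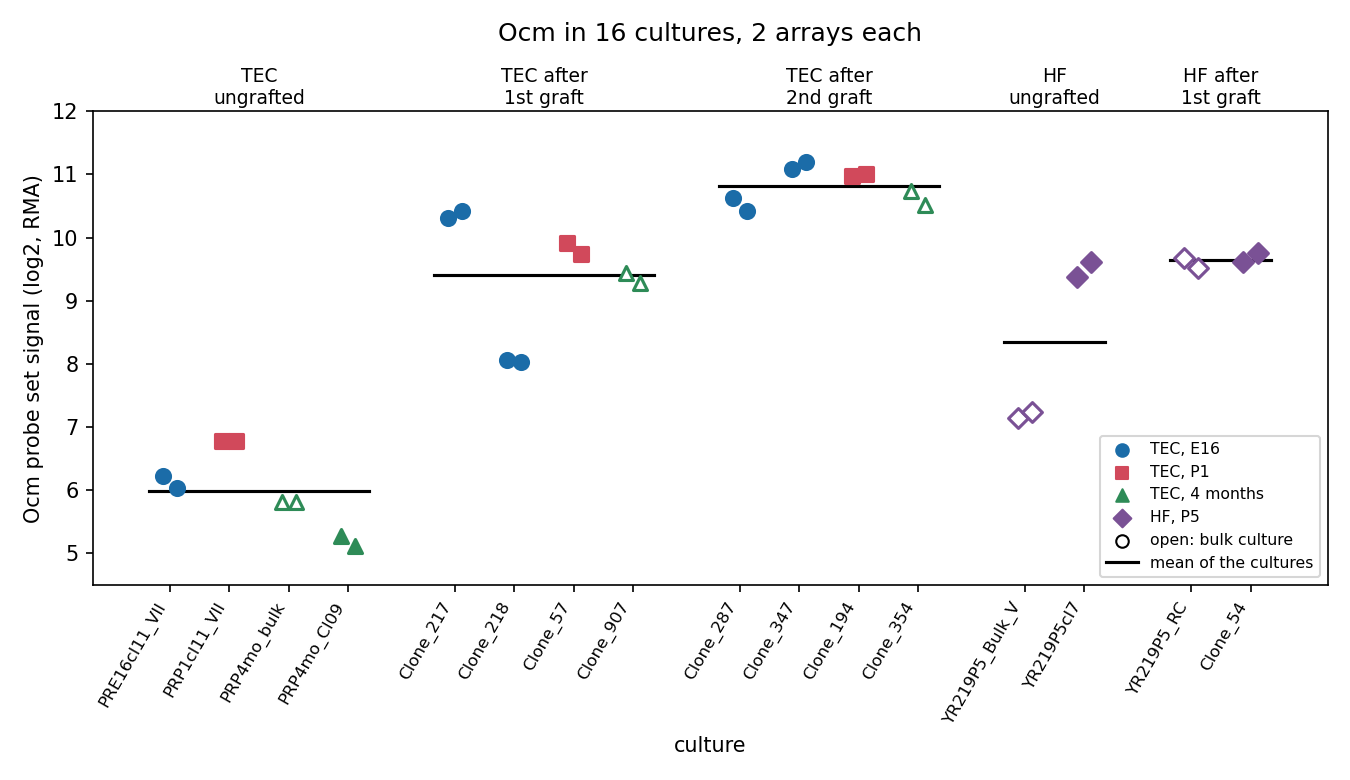
Ocm signal (log2, RMA) on both arrays of each of the 16 cultures, grouped by tissue and transplantation; symbols give the donor stage, open symbols are bulk cultures and black lines are means of cultures. Ungrafted TEC cultures lie between 5.19 and 6.78 and twice-grafted ones between 10.52 and 11.13. The ungrafted HF cultures lie apart from each other, at 7.19 and 9.50.

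The arrays of a culture agreed closely compared with the cultures of a group. The SD between the arrays of a culture, pooled over cultures, was 0.104, and the largest gap was 0.23. The SD between cultures of a group, pooled over the 5 groups, was 0.81. The spread in Ocm was therefore mainly between cultures.

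In ungrafted HF cultures, Ocm was at 7.19 in the bulk culture YR219P5_Bulk_V and at 9.50 in the clone YR219P5cl7 (8.34 ± 1.63, SD, n = 2). After a first transplantation it was at 9.59 in the bulk culture YR219P5_RC and 9.69 in the clone Clone_54 (9.64 ± 0.07, SD, n = 2). The grafted HF cultures were thus close to each other and to the ungrafted clone, while the ungrafted bulk culture was lower. Grafted HF cultures were 1.30 higher than ungrafted ones (limma SE 0.73, 95% interval −0.26 to 2.86), and the difference did not pass (limma adjusted p = 0.581). For Ocm both grafted HF cultures were above both ungrafted ones, as for 4633 probe sets (30.2%). In this comparison limma called 0 of 15316 probe sets (0%), with 1354 at an unadjusted p under 0.05. The value rested on single cultures: it was 0.15 without YR219P5_Bulk_V (adjusted p = 1) and 2.45 without YR219P5cl7 (adjusted p = 0.134). Each leaves 1 ungrafted HF culture, which is assumed to vary like the cultures of the other groups.

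Set beside the HF cultures, ungrafted TEC cultures were 2.37 lower than ungrafted HF cultures (log2 difference −2.37, limma SE 0.63), with no overlap. With clonal cultures alone this difference was −3.46, without YR219P5_Bulk_V −3.52 and without YR219P5cl7 −1.21. Once-grafted TEC cultures differed from grafted HF cultures by −0.24 (limma SE 0.63), and the HF values lay inside the TEC range. This difference was 0.21, the other way, without Clone_218. Twice-grafted TEC cultures were 1.18 above grafted HF cultures (limma SE 0.63), and none of them was as low as Clone_54.

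In order of level, the group means ran from ungrafted TEC (5.98) through ungrafted HF (8.34), once-grafted TEC (9.40) and grafted HF (9.64) to twice-grafted TEC (10.82). Among neighbours in that order, the values of ungrafted HF and once-grafted TEC overlapped, and so did those of once-grafted TEC and grafted HF. Of the 15 steps between neighbouring cultures, 2 were larger than the pooled SD between cultures: 0.86 between YR219P5_Bulk_V and Clone_218, and 1.31 between Clone_218 and Clone_907. The other steps were at most 0.65. One ungrafted culture, YR219P5cl7, lay above the lowest grafted culture, and the 10 grafted cultures of both tissues ran from 8.05 upward.

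Donor stage was tested within the 12 TEC cultures with transplantation state in the model. Cultures from 4-month donors differed from those of E16 donors by −0.27 (limma SE 0.42, 95% interval −1.20 to 0.65, adjusted p = 0.901), where 0.0914% of probe sets passed. P1 cultures differed from E16 cultures by 0.50 (SE 0.44, interval −0.47 to 1.48, limma adjusted p = 0.585), where 6.08% of probe sets passed. Cultures from 4-month donors differed from P1 cultures by −0.78 (SE 0.46, interval −1.80 to 0.25, limma adjusted p = 0.675), where 0.353% passed. The P1 culture was above the 4-month cultures in each state: 6.78 against 5.19 and 5.81 before grafting, 9.83 against 9.36 in once-grafted and 11 against 10.63 in twice-grafted cultures. Each interval extends past 1 log2 unit in one direction, so similar levels across stages are not shown.

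Bulk cultures differed from clones by −0.49 with the 5 groups in the model (limma SE 0.39, 95% interval −1.35 to 0.36, adjusted p = 0.998). Limma called 0 of 15316 probe sets (0%) in this comparison, with 793 at an unadjusted p under 0.05. For Ocm, the 5 bulk cultures included the lowest HF culture and, after each transplantation, a TEC culture that was not the lowest of its group.

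**Figure D2:**
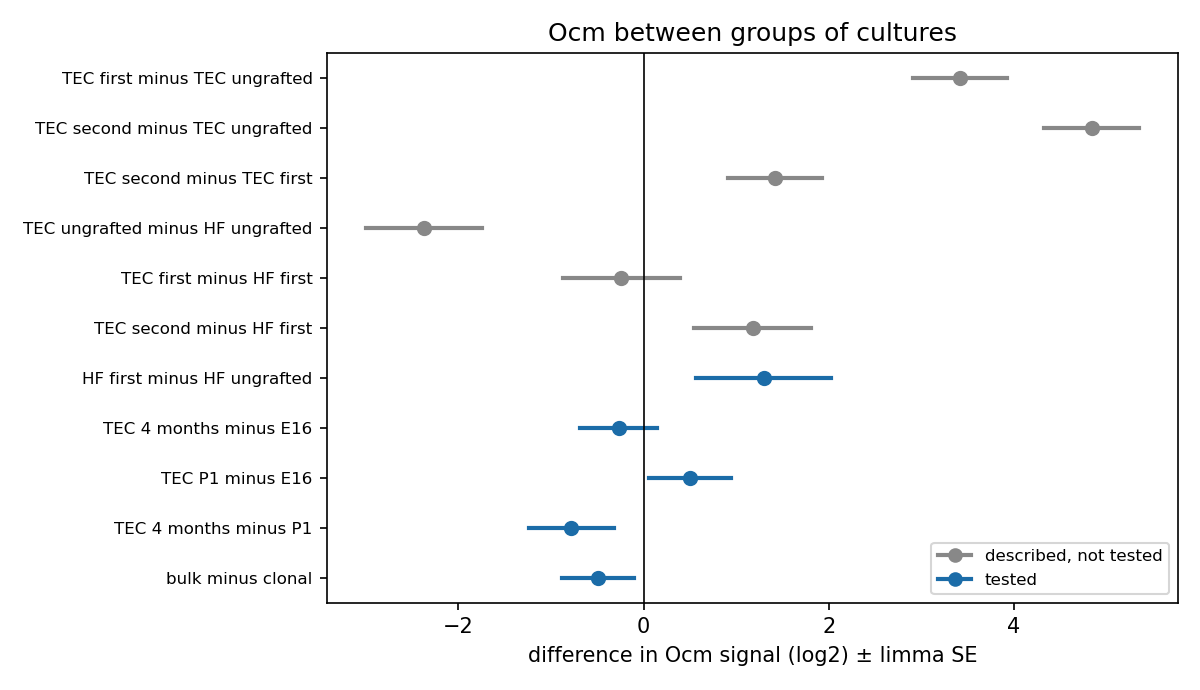
Differences in Ocm signal (log2, points) with limma standard errors (bars); grey comparisons involve the TEC states that chose the gene and are described only, blue ones were tested. None of the 5 tested differences passed, the largest being 1.30 ± 0.73 for grafted against ungrafted HF cultures.

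The level of Ocm was next set beside that of its neighbours on chromosome 12. In the RefSeq gene table, the 4 nearest measured genes before Ocm were Baiap2l1, Bri3, Bhlha15 and Lmtk2, and the 4 after it were Rsph10b, Pms2, Aimp2 and Eif2ak1. None of the 8 passed with limma after a first transplantation (0 of 8, 1 at an unadjusted p under 0.05), after a second (0 of 8, 2 at an unadjusted p under 0.05) or in HF cultures (0 of 8, 0 at an unadjusted p under 0.05). Over all 15316 probe sets, 2270 (14.8%), 3007 (19.6%) and 1354 (8.84%) were at an unadjusted p under 0.05 in these comparisons, so the neighbours' counts are near that background. Their log2 differences ran from −0.22 to 0.84 after a first transplantation and from −0.32 to 0.77 after a second. Lmtk2, a membrane kinase, had the highest values, 0.84 ± 0.27 SE (limma adjusted p = 0.175) and 0.77 ± 0.27 SE (limma adjusted p = 0.127). Its level was 7.34 to 8.32 in ungrafted, 8.47 to 8.86 in once-grafted and 7.78 to 9.01 in twice-grafted TEC cultures, so that the last overlapped the first.

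Among other calcium buffers and EF-hand sensors, the closest relative of Ocm, the parvalbumin gene Pvalb, was at 3.47 to 4.93 in all cultures and differed by −0.14 ± 0.23 SE and −0.27 ± 0.23 SE after a first and a second transplantation (limma adjusted p = 0.855 and 0.578). The buffers calbindin (Calb1) and calretinin (Calb2) were at 2.77 to 3.04 and 2.82 to 3.22, under 4 in every culture. None of these 3 EF-hand genes passed in either TEC comparison.

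Of the list's 50 measured probe sets (45 genes), limma called 0 after a first transplantation, with 11 at an unadjusted p under 0.05, beside 14.8% of all probe sets. After a second it called 3 higher and 2 lower with 45 not past, and 14 were at that p, beside 19.6% of all probe sets. In HF cultures it called 0, with 4 at an unadjusted p under 0.05, beside 8.84% of all. Over all probe sets, limma called 0.215% higher and 0.300% lower after a first and 1.93% higher and 1.93% lower after a second transplantation. The list's median log2 difference was 0.03 for once-grafted and −0.01 for twice-grafted cultures, beside 0.01 and 0.014 over all probe sets. In HF cultures it was 0.13 beside 0.102 over all probe sets, a shift that fell to 0.005 with the arrays centred on their medians.

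Calml3, a calmodulin-like protein of stratified epithelia, rose 5.29-fold after a second transplantation (5.82 ± 0.50 to 8.22 ± 1.12, SD, n = 4 each; limma adjusted p = 0.0224) and was 2.36 higher after a first (adjusted p = 0.0574). Its level in ungrafted HF cultures was 8.34 ± 0.71 (SD, n = 2). Vsnl1, a neuronal calcium sensor, rose 2.01-fold (limma adjusted p = 0.041), and 1 of 3 probe sets of Chp1, a calcineurin B-like protein named after its values were seen, rose 1.36-fold (adjusted p = 0.046). The other Chp1 probe sets had 1.30-fold and 1.34-fold (limma adjusted p = 0.0865 and 0.0615). Gca, the calcium-binding protein grancalcin, fell 5.13-fold (8.33 ± 0.56 to 5.97 ± 0.99, SD, n = 4 each; limma adjusted p = 0.0177), and Efhd2, an actin-linked EF-hand protein, fell 1.89-fold (adjusted p = 0.0313). The call of Calml3 ended without PRP4mo_Cl09 (adjusted p = 0.0702) or Clone_194 (0.0553), and that of Gca without PRP4mo_bulk (0.0626) or PRP4mo_Cl09 (0.0546). Those of Efhd2, Vsnl1 and Chp1 ended in 7, 10 and 12 of 16 cases with 1 culture left out, with limma adjusted p up to 0.0785, 0.125 and 0.134.

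**Figure D3:**
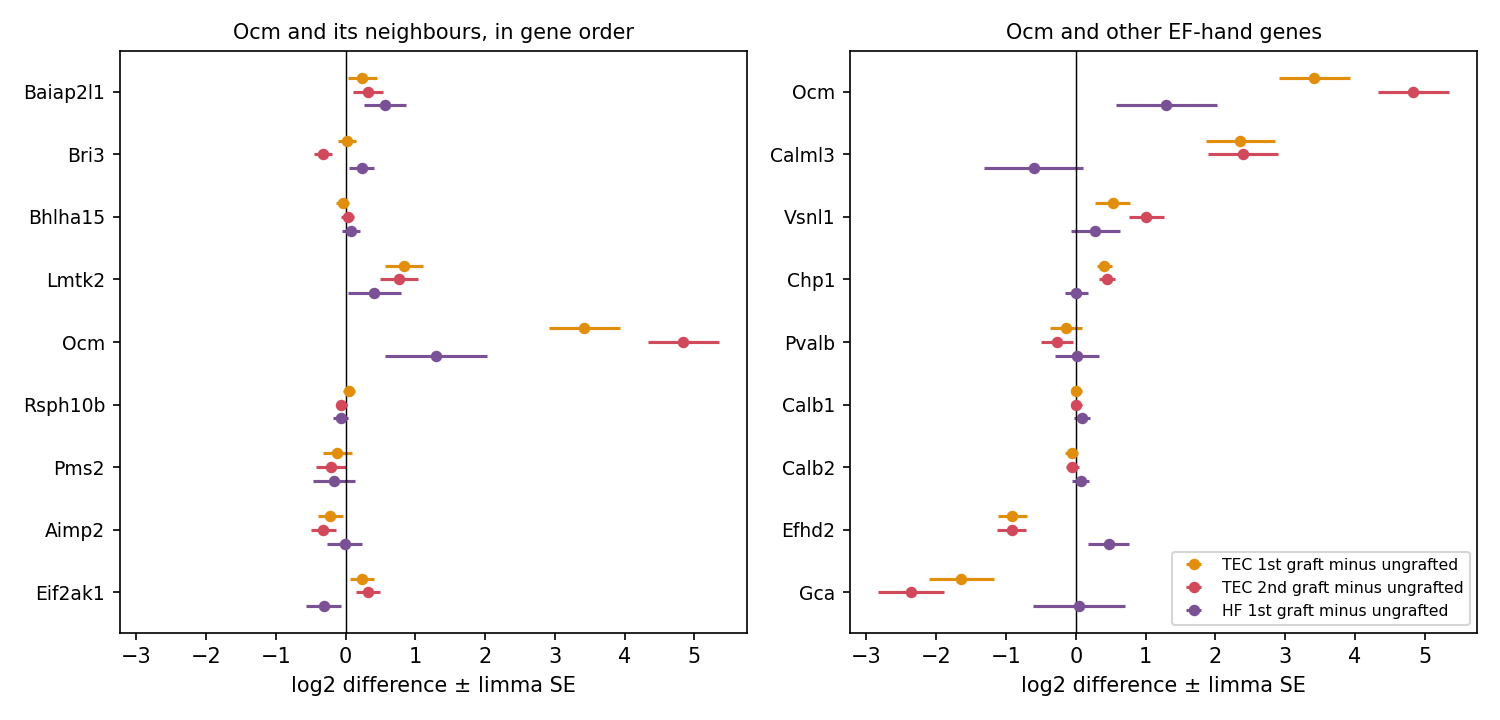
Log2 differences (points) with limma standard errors (bars) in 3 comparisons for Ocm and its 8 nearest measured neighbours in gene order (left) and for Ocm and other EF-hand genes (right). Ocm differs by 3.42 and 4.84 in TEC cultures, while its neighbours lie between −0.32 and 0.84 in these comparisons and Calb1 and Calb2 lie near 0.

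The S100 proteins are EF-hand proteins of another branch. Of 18 measured probe sets (14 genes), limma called 0 after a first transplantation, with 5 at an unadjusted p under 0.05. After a second it called 0 higher and 3 lower, with 15 not past and 5 at an unadjusted p under 0.05. Over all probe sets, 14.8% and 19.6% were at that unadjusted p after a first and a second transplantation. After a second, 1.93% were called lower. The members that fell were S100a4 (3.25-fold, limma adjusted p = 0.0134), S100a6 (1.69-fold, 0.0248) and S100a10 (1.24-fold, 0.0435). The list's median was −0.05 for once-grafted and −0.06 for twice-grafted cultures. The call of S100a4 held whichever culture was left out, and those of S100a6 and S100a10 ended in 5 and 10 of 16 cases, with limma adjusted p up to 0.0661 and 0.112. Of 49 measured calcium pumps, channels and store proteins, limma called 0 in once-grafted and 0 in twice-grafted against ungrafted TEC cultures. At an unadjusted p under 0.05 there were 5 and 6, beside 14.8% and 19.6% of all probe sets. The median of these pumps, channels and store proteins was 0.02 and 0.08.

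Ocm is known from cell types that are not keratinocytes, and their markers were read in the same cultures. Of the 12 measured cochlear hair cell markers 0 were called in either TEC comparison by limma, with 0 and 1 at an unadjusted p under 0.05, beside 14.8% and 19.6% of all probe sets. The 1 was Espn, an actin-bundling protein named after its values were seen, which averaged 5.97, 6.63 and 6.85 in ungrafted, once-grafted and twice-grafted TEC cultures (limma adjusted p = 0.417 and 0.19). It averaged 6.44 and 7.30 in ungrafted and grafted HF cultures. Slc26a5, the motor protein prestin of outer hair cells, stayed between 3.77 and 4.59, and Atoh1 and Pou4f3, regulators of hair cell formation, between 4.42 and 4.96. Ikzf2 had the highest signal of the list, 7.36 to 9.07, and differed by −0.15 and −0.23 in the TEC comparisons. Of 16 macrophage and neutrophil markers 0 were called, with 0 and 0 at an unadjusted p under 0.05, fewer than over all probe sets. The leukocyte marker Ptprc was at 3.16 to 3.88 and the macrophage genes Lyz2 and Laptm5 at 3.38 to 3.89 in all cultures. Cd68, the macrosialin gene, was at 5.80 in ungrafted and 7.12 and 6.79 in once-grafted and twice-grafted TEC cultures on average (limma adjusted p = 0.356 and 0.434). The log2 of the summed signal of these markers was 9.83 to 10.36 in ungrafted, 9.65 to 10.57 in once-grafted and 10.22 to 10.40 in twice-grafted TEC cultures. Cd14, a co-receptor for bacterial lipopolysaccharide, had the highest signal of the list (8.52 to 9.99) and is the largest part of that sum. The part of these markers in the Ocm result was not tested.

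Trophoblast, oncofetal and skeletal muscle markers had 0 calls in either TEC comparison, among 12, 11 and 12 probe sets. At an unadjusted p under 0.05 there were 1, 1 and 0 for once-grafted and 2, 1 and 0 for twice-grafted cultures. Over all probe sets, 14.8% and 19.6% were at that p, and 1.93% were called lower after a second transplantation. Cdx2, a factor of trophoblast and intestine, averaged 5.35 in ungrafted, 6.79 in once-grafted and 7.54 in twice-grafted TEC cultures (limma adjusted p = 0.361 and 0.0949). Rhox5, on the trophoblast list, was at 5.57 to 7.86 in ungrafted and once-grafted and 5.65 to 10.83 in twice-grafted TEC cultures. Its mean was 6.24 ± 0.54 in ungrafted and 7.12 ± 2.49 in twice-grafted cultures (SD, limma adjusted p = 0.666). Hmga2, on the oncofetal list, averaged 9.33, 7.88 and 8.06 in the TEC groups (limma adjusted p = 0.12 and 0.0888). Fibroblast and feeder cell markers had a median of −0.26 and −0.17, with Twist1, a mesenchymal transcription factor, called lower after a second transplantation (2.32-fold, limma adjusted p = 0.0177, and 0.0514 without Clone_347) and 14 of 15 not past. The log2 of their summed signal was 12.93 to 13.48 in ungrafted, 11.92 to 12.93 in once-grafted and 12.20 to 12.50 in twice-grafted TEC cultures. It was 12.31 to 13.33 in ungrafted and 11.99 to 12.30 in grafted HF cultures. Most of the sum came from the matrix proteins Fn1 (means of 12.02, 11.68 and 11.50 in the TEC groups) and Sparc (11.32, 9.46 and 9.70) and from vimentin, Vim (10.43, 9.51 and 8.69). The fibroblast markers Pdgfra, Pdgfrb, Postn and Lum were at most at 5.07 in any culture, with twice-grafted minus ungrafted differences of −0.12 to 0.05. The collagen genes Col1a1, Col1a2 and Col3a1 were at 5.36 to 7.23, with differences of −0.01, −0.38 and −0.42. Thy1, Dcn, Fbn1 and Mmp2 differed by −0.89, −0.17, −0.15 and −0.12. The part of feeder cell RNA in the Ocm result was not tested. In bulk RNA from a culture, fewer cells of a type and less RNA per cell cannot be told apart.

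The level of Ocm was also set beside that of hair follicle and thymic markers. Of 7 hair follicle markers, limma called 0 after a first transplantation, with 3 at an unadjusted p under 0.05. After a second it called 2 higher, with 5 not past and 4 at that p. Over all probe sets, 14.8% and 19.6% were at that p after a first and a second, and 1.93% were called higher after a second. The members called were Gata3 (3.53-fold, limma adjusted p = 0.0187) and the vitamin D receptor gene Vdr (3.16-fold, adjusted p = 0.0124). The call of Gata3 ended without PRP4mo_bulk (adjusted p = 0.0594) or PRP4mo_Cl09 (0.0546). The list's median was 0.43 for once-grafted and 0.79 for twice-grafted cultures. Of 8 thymic identity markers, limma called 0 after a first transplantation, with 1 at an unadjusted p under 0.05. After a second it called 0 higher and 1 lower, with 7 not past and 3 at that p. Over all probe sets, 1.93% were called lower after a second. The member called was Pax1, a pharyngeal pouch factor, which fell 2.47-fold (6.54 ± 0.95 to 5.24 ± 0.24, SD, n = 4 each, limma adjusted p = 0.048). Ungrafted Pax1 was at 7.25 in PRP1cl11_VII and 7.48 in PRP4mo_bulk, but at 5.71 in PRE16cl11_VII and 5.73 in PRP4mo_Cl09. Twice-grafted cultures had 4.99 to 5.55. The call of Pax1 ended in 14 of 16 cases with 1 culture left out (limma adjusted p up to 0.127). The list's median after a second transplantation was −0.06. Pax9 and Isl1 differed by −0.98 and −0.78 (limma adjusted p = 0.168 and 0.0847), and Foxn1, Ccl25, Psmb11, Aire and Dll4 by −0.07 to 0.21.

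The genes whose level was most like that of Ocm were ranked by Pearson correlation over the 16 culture means, among 1173 other probe sets whose culture means spanned at least 2 log2 units. Over these probe sets the correlation had a median of −0.01, a 5th percentile of −0.74 and a 95th percentile of 0.71. The 16 points share their grafting states, so a gene that differs by state correlates with Ocm for that reason alone. The second correlation given with a gene uses deviations from the 5 group means, which removes that part. The genes were chosen by the first correlation over the same cultures, a choice that favours a high second correlation as well.

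The gene most like Ocm was Sh3rf2, an SH3-domain protein of the ubiquitin ligase family (r = 0.960, and 0.76 over deviations). Its level was 6.01 to 6.94 in ungrafted TEC cultures, 7.04 in Clone_218 and 8.51 to 8.79 in the other once-grafted cultures, and 8.71 to 9.17 in twice-grafted ones. In HF cultures it was at 7.25 in YR219P5_Bulk_V and 8.23 to 8.59 in the others. Sh3rf2 was low in Clone_218 and YR219P5_Bulk_V, as Ocm was, a likeness that its choice by correlation favours. Among twice-grafted cultures the order differed: Clone_347, the highest for Ocm, was the lowest for Sh3rf2 at 8.71.

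Next came 4 enzymes and a secreted ligand. Scd, the stearoyl-CoA desaturase, had r = 0.932 (0.71 over deviations). Acsl1, which activates long-chain fatty acids, had r = 0.876 (0.63). Ckmt1, a mitochondrial creatine kinase, had r = 0.874 (0.67). Gpr15lg, the ligand of the receptor GPR15, had r = 0.871 (0.55), and Cdc25b, a cell cycle phosphatase, had r = 0.869 (0.62). Gpr15lg covered the range closest to that of Ocm, from 5.38 in YR219P5_Bulk_V to 11.86 in Clone_194, but Clone_218 at 10.81 was not the lowest of the once-grafted cultures for it.

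The remaining genes of the 10 were Lpin1, a phosphatidate phosphatase (r = 0.860), Prnp, the prion protein gene (r = 0.859), the transcription factor Foxq1 (r = 0.849) and Vdr (r = 0.848). Over deviations these fell to 0.33 for Lpin1, 0.39 for Prnp and 0.35 for Vdr, and Foxq1 had 0.72. Of the 10 genes, 3 were also among the 10 highest by deviations, where the correlations ran from 0.68 to 0.79. With each culture left out in turn, 7 to 10 of them stayed among the 10 most like Ocm.

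The genes most opposite to Ocm were Tram1l1, a relative of a translocation protein of the endoplasmic reticulum (r = −0.952, and −0.80 over deviations), Pear1, a membrane receptor (r = −0.916), Smim3, a small membrane protein (r = −0.887), Dbn1, the actin-binding protein drebrin (r = −0.884), and S100a4 (r = −0.878). Tram1l1 was at 6.62 to 7.35 in ungrafted TEC cultures, 5.54 in Clone_218, 4.41 to 4.95 in the other once-grafted ones and 4.26 to 4.55 in twice-grafted ones. In HF cultures it was at 5.72 in YR219P5_Bulk_V and 4.37 to 4.91 in the others. The choice of Tram1l1 by correlation favours such a mirrored order. It did not hold in every group: Clone_287, the lowest twice-grafted culture for Ocm, was also the lowest for Tram1l1 at 4.26.

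**Figure D4:**
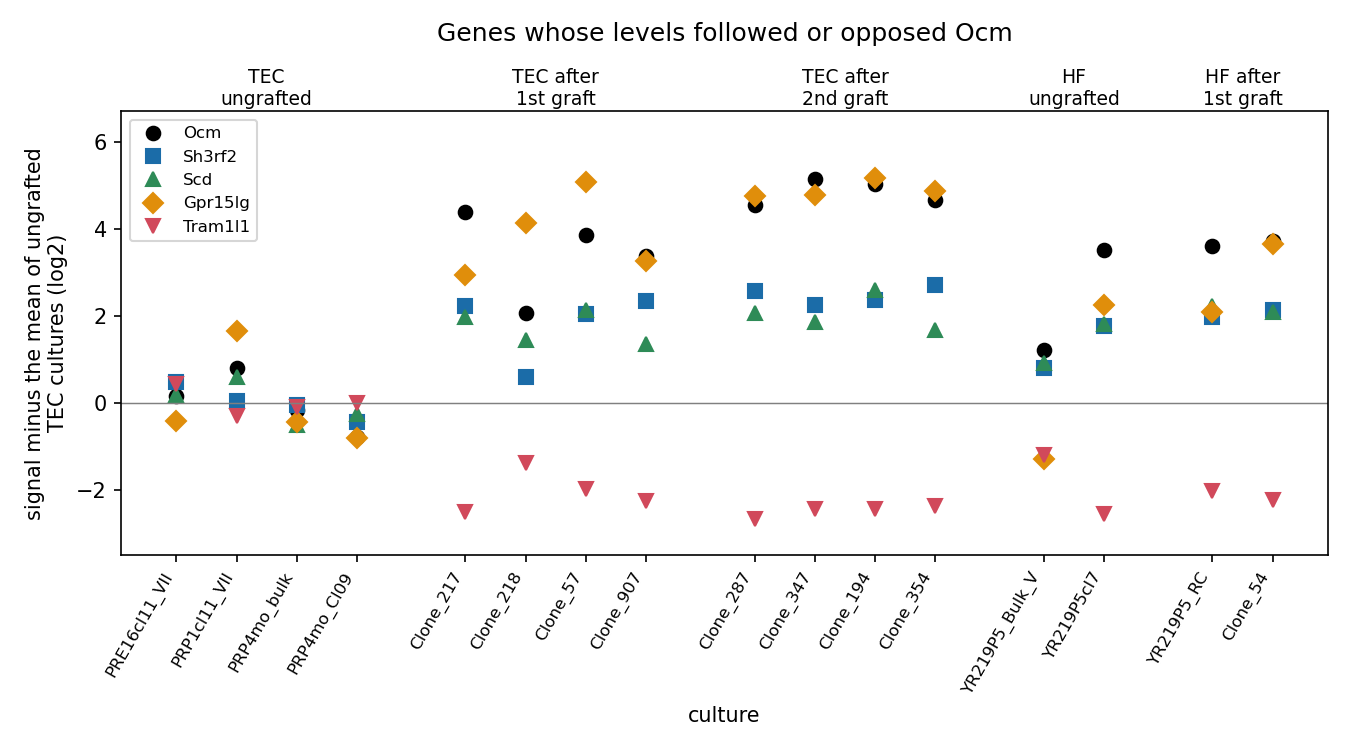
Signal of Ocm, 3 of the genes most like it and the gene most opposite to it in each culture, as the log2 difference from that gene's mean in ungrafted TEC cultures. Ocm and Sh3rf2 are both lowest in Clone_218 among once-grafted TEC cultures and in YR219P5_Bulk_V among HF cultures, where Tram1l1 is highest; all but Ocm were chosen by their correlation over these cultures.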

How the data were processed

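RNA of 16 rat cultures was measured on Affymetrix arrays, 2 per culture (32 in all). Per the submitters' processing notes, the authors made the deposited log2 signals by RMA in Affymetrix Expression Console; the version is not given in the sources used here. The log2 scale was inferred from the range of values (1.526 to 14.03). Of 29215 probe sets, 15316 carried 1 gene symbol, 317 several and 13582 none in the platform annotation; 15279 matched the RefSeq table. No level filter was used.

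Both arrays of a culture were averaged, since they share its name. Limma 3.58.1 in R 4.3.3 (lmFit, eBayes) was fitted to the 16 culture means with all 5 groups, to 12 TEC cultures with state and donor stage, and to 16 with group and culture kind. P-values were adjusted by Benjamini-Hochberg over 15316 probe sets (threshold 0.05). The fits were tested on simulated data. P-values set a difference against the spread between these cultures, whose number limits precision. The cultures were treated as independent, and their names do not show whether some share a donor or descent. A signal under 4 was not taken as above background.

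The member and the gene lists were chosen with earlier results of these data known. Named genes were the 10 most like and 5 most opposite to Ocm, up to 4 called members per list (Chp1 was added), 5 fixed EF-hand genes where measured, 4 neighbours per side and defining markers. Alternatives were other normalizations, units, filters, single arrays, left-out cultures and, added after seeing the data, omission of 1 array. Basal epithelial markers had 0 of 8 probe sets past in either TEC comparison. At an unadjusted p under 0.05 there were 2 and 1, beside 14.8% and 19.6% of all probe sets.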

Additional observations from a re-analysis of the deposited data

How the results depend on the processing

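No tested difference in Ocm passed under any alternative run. Apart from left-out cultures, 1 value moved by more than the spread between cultures: ungrafted TEC minus ungrafted HF was −3.46 with clonal cultures alone. With 1 culture left out in turn, the log2 difference ran from 3.10 to 3.87 (first minus ungrafted TEC), 4.58 to 5.11 (second minus ungrafted), 0.97 to 1.74 (second minus first), −3.52 to −1.21 (ungrafted TEC minus HF), −0.56 to 0.21 (once-grafted TEC minus grafted HF, above 0 without Clone_218) and 1.07 to 1.28 (twice-grafted TEC minus grafted HF). It ran from 0.15 to 2.45 for HF grafting, −0.62 to 0 for 4 months minus E16, 0.13 to 0.80 for P1 minus E16, −0.94 to −0.55 for 4 months minus P1 and −0.65 to −0.16 for bulk minus clonal, with no adjusted p under 0.134. Without array 1 of YR219P5_RC, a choice made after seeing the data, HF grafting gave 1.26 (adjusted p = 0.727). Counts of called probe sets were less stable. After a first transplantation, 79 were called, 1183 when arrays were fitted with culture as a random block, 143 with donor stage in the model and 8 (without Clone_217) to 148 (without Clone_57) with 1 culture left out. Between these lay 136 without either ungrafted HF culture, 49 when PRP1cl11_VII was dropped, 13 when Clone_907 or PRP4mo_Cl09 was, and 9 when PRP4mo_bulk was. After a second, 591 were called, 2070 with the random block and 149 (without PRP4mo_bulk) to 674 (without Clone_287) with 1 left out, with 150 without PRP4mo_Cl09, 251 without Clone_347, 279 without Clone_194, 303 without Clone_354 and 334 without PRP1cl11_VII. For HF grafting the count was 0, 49 with the random block and 0 to 260 (without YR219P5cl7) with 1 left out. The cause was not tested. With arrays centred on their medians, Vsnl1, Chp1, S100a10 and Pax1 did not pass after a second transplantation (adjusted p = 0.0564, 0.059, 0.0798 and 0.0525), and with donor stage in the model S100a10 and Pax1 did not (0.0599 and 0.0672). No paired analysis was possible because the replicate numbers in the labels mark the 2 arrays of 1 culture and pair no cultures across groups.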

Other observations

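The 13 probe sets whose TEC culture values rose without overlap at both transplantation steps were read as a list, which was formed after the values were seen. Ocm was chosen by its level in grafted TEC cultures, so nothing is read from its place in the list. By the difference of second transplantation from ungrafted, Ocm (4.84) was followed by Hcar2, the receptor for nicotinic acid and hydroxybutyrate (1.78), Sertad4 (1.17), Rin2 (1.07), Klf4, a factor of epidermal differentiation (0.98), Gja1, a gap junction protein (0.89), Stom, the membrane protein stomatin (0.83), and a second probe set of Klf4 (0.76). The other 5 had 0.32 to 0.73.

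The 10 genes most like Ocm over the 12 TEC cultures alone were then read in the 4 HF cultures, which that ranking did not use. The filter for a span of at least 2 log2 units did use all cultures, HF included. For 7 of the 10 the lowest HF culture was the ungrafted bulk culture YR219P5_Bulk_V, as for Ocm, beside 45.6% of all 1173 probe sets that spanned at least 2 log2 units. Among them Clca2, a chloride channel regulator, was at 7.21 in that culture and 10.59 in the ungrafted clone YR219P5cl7, while Rapgef5 (7.37 and 5.81) and Sertad4 (10.20 and 9) had the opposite order. Of the 10 most opposite genes, 4 were highest in YR219P5_Bulk_V, beside 37.6% of all. These counts rest on a single culture and on genes that vary together, so no conclusion is drawn from them.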
